A study of Homo sapiens with 6 samples.

Results

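The 9 genes described here are LIN28A and LIN28B, IGF2BP1, IGF2BP2 and IGF2BP3, HMGA1 and HMGA2, and DICER1 and DROSHA, all found by symbol in GENCODE 29 among the 32434 gene IDs of the table. They were measured by RNA sequencing in SK-N-BE(2), an established human neuroblastoma cell line grown in RPMI medium with fetal bovine serum. The shMYT1 group (3 libraries) received lentivirus with a hairpin RNA that targets MYT1, and the shNC group (3 libraries) a control hairpin, and both were infected for 24 h and selected in puromycin for 48 h. The genotype labels and the design text say knockout, while the treatment label says knockdown, and the cells are described here as a knockdown of 1 cell line. No label gives the hairpin sequences or calls the replicates independent cultures. The p-values therefore cover the spread among these libraries and no more.

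LIN28A and LIN28B are RNA-binding proteins that are abundant in embryonic cells and bind the precursors of let-7 microRNAs, which keeps those precursors from maturing. DROSHA cuts primary microRNA transcripts in the nucleus and DICER1 cuts the resulting hairpins in the cytoplasm, so LIN28 proteins act on substrates of both enzymes. The IGF2BP proteins bind and stabilise many fetal mRNAs and read the m6A mark, and HMGA1 and HMGA2 are AT-hook proteins that bend DNA. LIN28B, IGF2BP and HMGA2 mRNAs are known targets of let-7, and LIN28B is a known driver gene of neuroblastoma. Mature microRNAs were not measured in these libraries.

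Most of these genes, though not DICER1 or DROSHA, hold a match to the let-7 seed, the stretch of a microRNA that pairs with its targets. All 9 mature let-7 family members of the 5′ arm in the RefSeq table (GRCh38.p14) carried 1 seed, bases 2 to 8, shown in capitals for 4 of them that differ elsewhere.
hsa-let-7a-5p: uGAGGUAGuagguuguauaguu
hsa-let-7d-5p: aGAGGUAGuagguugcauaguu
hsa-let-7i-5p: uGAGGUAGuaguuugugcuguu
hsa-miR-98-5p: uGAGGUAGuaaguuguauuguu
LIN28 proteins recognise a GGAG element in the let-7 precursor. Between the arms of the 12 family hairpins, 9 held GGAG and 3 did not, against 8.12% of the 739 RefSeq human hairpins with both arms listed. The element is known from let-7 precursors, so this higher share follows from the choice of hairpins. MIRLET7F2 has no 3′ arm in that table, and its stretch was taken to the end of the hairpin. The pair below yields the same mature let-7a, the upper hairpin with GGAG (in capitals) and the lower without.
MIRLET7A1, chr9:94175957-94176036, plus strand: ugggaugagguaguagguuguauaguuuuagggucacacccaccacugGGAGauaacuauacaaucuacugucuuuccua
MIRLET7A3, chr22:46112749-46112822, plus strand: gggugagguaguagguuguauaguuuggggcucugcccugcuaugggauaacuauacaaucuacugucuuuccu

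The 8 letters that pair with the seed and face an A, CTACCTCA, were searched on the mRNA strand of every 3′ UTR in GENCODE 29 (GRCh38). They were found in 6 of the 9 genes, against 4.08% of 19104 genes with a 3′ UTR and 8.51% of the 6536 whose longest 3′ UTR had at least 1792 bases, the shortest among those 6 genes. LIN28B, IGF2BP and HMGA2 mRNAs are known let-7 targets, so more matches than among all genes follow from the choice of the set. IGF2BP1 held 3 such matches and LIN28B held 2, and 2 or more were found in 0.194% of genes. LIN28A, IGF2BP2, IGF2BP3 and HMGA2 held 1 each, and HMGA1, DICER1 and DROSHA held 0. A shorter match of 7 letters, CTACCTC, which each 8-letter match contains, was found 4 times in HMGA2, IGF2BP1 and LIN28B, once in HMGA1, and in 10.5% of all genes. The 9 windows with an 8-letter match (in capitals) are shown because the genes are grouped by this match in a comparison that follows, where HMGA1, DICER1 and DROSHA fall in the class without one. A match describes the letters only, not binding.
LIN28A, chr1:26427349-26427371, plus strand: cacagcctattgaaCTACCTCAt
LIN28B, chr6:105078813-105078835, plus strand: cccggttgcaaagtCTACCTCAt
LIN28B, chr6:105081422-105081444, plus strand: tttacagcaaaaggCTACCTCAt
IGF2BP1, chr17:49051062-49051084, plus strand: gtgtgcgaagtaaaCTACCTCAa
IGF2BP1, chr17:49053699-49053721, plus strand: agcagtgctagtaaCTACCTCAc
IGF2BP1, chr17:49054353-49054375, plus strand: tataaatggattaaCTACCTCAa
IGF2BP2, chr3:185644219-185644241, minus strand: acacacagaagaagCTACCTCAg
IGF2BP3, chr7:23311794-23311816, minus strand: gcatttttactcaaCTACCTCAg
HMGA2, chr12:65963299-65963321, plus strand: ccaacgttcgatttCTACCTCAg

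The deposited values correspond to 18.16 to 20.3 M fragments per shMYT1 library and 21.08 to 21.68 M per shNC library. MYT1 itself, the targeted gene, averaged 4.23 ± 0.115 FPKM in shMYT1 and 5.34 ± 0.34 FPKM in shNC (SD, n = 3 each), a log2 fold change of -0.28 (limma adjusted p = 0.0102). With limma on log2(FPKM + 1) and genes of at least 1 FPKM on average, 1683 of 14106 genes rose and 1737 fell at an adjusted p under 0.05, so that 49.2% of the calls were higher. That split depends on the scaling: with the libraries rescaled to the same FPKM total, 1307 rose and 2279 fell, or 36.4% higher. All 8 noradrenergic neuroblastoma markers were detected, with 3 higher and 3 lower in shMYT1 past the threshold, among them DBH at a log2 fold change of 0.80. Of the 10 fibroblast markers, 8 were tested, 3 rose and 3 fell. Their summed level was 151 to 154 FPKM in shMYT1 libraries and 194 to 199 FPKM in shNC libraries. LUM gave 34.0% to 37.9% of that sum in shMYT1 and 47.6% to 51.3% in shNC, at a log2 fold change of -0.83, while COL1A2 and POSTN stayed under 1 FPKM. Among Schwann cell markers, SOX10 and FOXD3 were not found in the table, and ERBB3 stayed under 1 FPKM. S100B averaged under 2 FPKM in both groups and did not pass (limma adjusted p = 0.0888, and 0.0187 without shMYT1 replicate 2). The part of these marker differences in the results that follow was not tested. In bulk RNA, fewer cells of a type and less RNA per cell cannot be told apart.

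The 9 genes fell into a well expressed set and a set near the limit of detection. FPKM is per length, so levels can be set side by side, here as means over the 6 libraries. HMGA1 was highest at 116 FPKM, higher than 98.6% of 16624 protein-coding genes. DICER1 followed at 17.6, DROSHA at 13.4, IGF2BP3 at 10.5 and LIN28B at 8.54 FPKM, and the library values of neighbours in this order did not overlap. The other 4 averaged 0.217 FPKM (IGF2BP2), 0.111 FPKM (IGF2BP1), 0.0158 FPKM (LIN28A) and 0.0111 FPKM (HMGA2). Library values of neighbours in that lower order overlapped. HMGA2 averaged above LIN28A in shMYT1 (0.0201 and 0.00417 FPKM) and below it in shNC (0.00206 and 0.0275 FPKM). The cells held 1 well expressed gene of each of the LIN28, IGF2BP and HMGA families, and paralogs at a small fraction of its level.

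**Figure D1:**
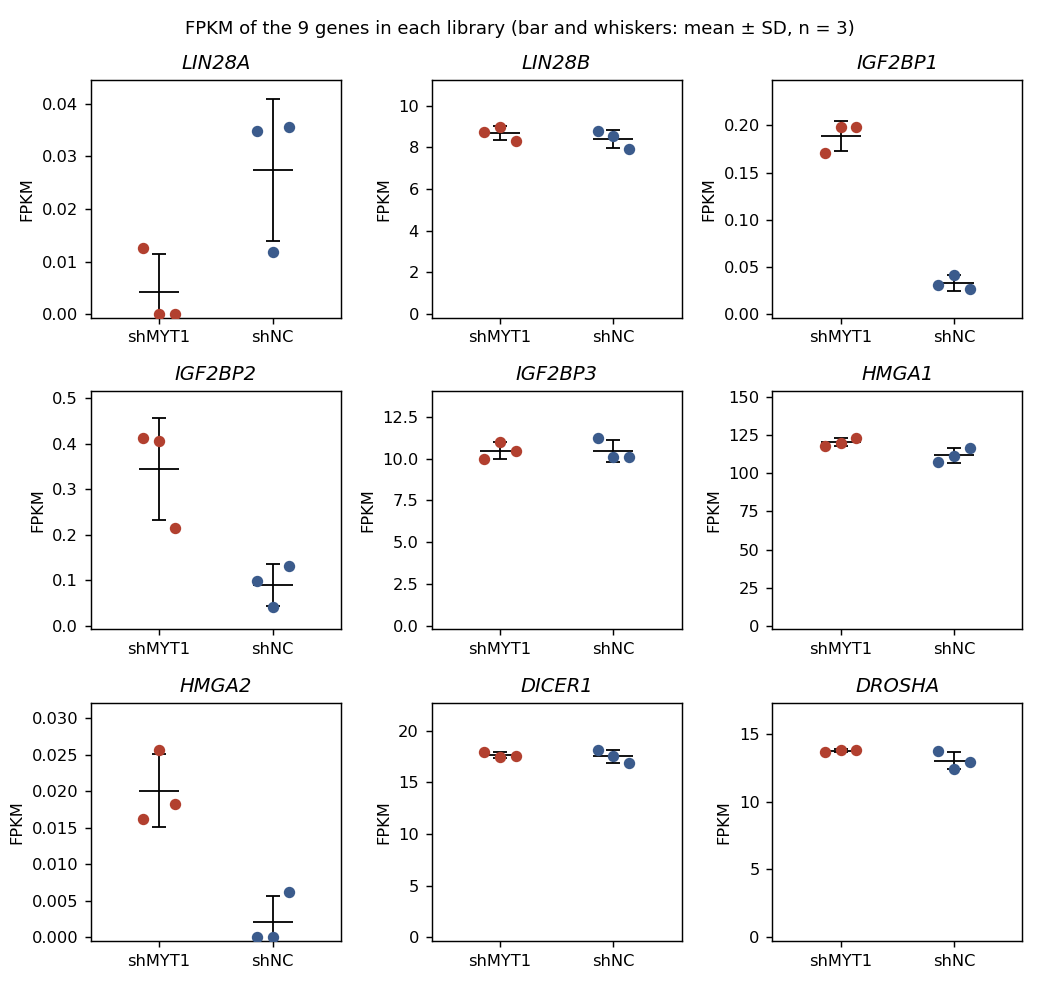
FPKM (y axis, linear, from 0, with its own range in each panel) of the 9 genes in the 3 shMYT1 libraries (red, left) and 3 shNC libraries (blue, right), with the mean and SD of each group. IGF2BP1, IGF2BP2, HMGA1 and HMGA2 show no overlap between the groups, and the other 5 genes do overlap.

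LIN28B (ENSG00000187772, chr6:104936616-105083332, plus strand), the LIN28 paralog these cells express, did not differ beyond the replicate spread. It had 8.73, 8.99 and 8.32 FPKM in shMYT1 libraries 1 to 3, against 8.77, 8.52 and 7.91 FPKM in shNC libraries 1 to 3. The groups overlapped, with the highest value in a shMYT1 library and the lowest in a shNC library. Limma gave a log2 fold change of 0.04 (SE 0.05, 95% interval from -0.07 to 0.16, adjusted p = 0.566), which limits a change to a ratio of 0.951 to 1.12 on the FPKM + 1 scale. These values rest on 887 to 1130 fragments in each library.

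LIN28A (ENSG00000131914, chr1:26410778-26429722, plus strand), the paralog of embryonic stem cells, was barely detected in either group. It had 1, 0 and 0 fragments in shMYT1 libraries and 3, 1 and 3 in shNC libraries, at most 0.0125 FPKM in shMYT1 and 0.0357 FPKM in shNC. No library held more than 3 fragments, which equal 0.0349 to 0.0423 FPKM for this gene, so no fold change is given. LIN28B made up 99.95 ± 0.08% of the summed LIN28 FPKM in shMYT1 and 99.67 ± 0.17% in shNC (SD, n = 3 each; exact two-sided permutation p = 0.2).

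IGF2BP3 (ENSG00000136231, chr7:23310209-23470467, minus strand), the main IGF2BP gene of these cells, did not pass the test, and its interval covers small changes in either direction. It had 9.97, 10.997 and 10.5 FPKM in shMYT1 libraries, against 11.2, 10.1 and 10.1 FPKM in shNC libraries. The highest value was in a shNC library, the lowest in a shMYT1 library, and the groups overlapped. Its log2 fold change in limma was 0.0011, with SE 0.05, a 95% interval of -0.13 to 0.13 and adjusted p = 0.991. Its exons share 1521 bases with MALSU1 on the opposite strand, so fragments there cannot be assigned with certainty where strand was not counted.

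IGF2BP1 (ENSG00000159217, chr17:48997412-49055650, plus strand), the fetal paralog with the most let-7 matches above, was low and rose in shMYT1. It had 0.171, 0.199 and 0.198 FPKM in shMYT1 libraries, against 0.0307, 0.0418 and 0.0262 FPKM in shNC libraries. All 3 shMYT1 libraries lay several times above every shNC library. These values rest on 31, 32 and 32 fragments in shMYT1 and 6, 8 and 5 fragments in shNC. The ratio of the means was 5.74, with an exact 95% counting interval of 3.47 to 9.92 for the ratio of the summed fragments adjusted for library size. In the fit of all 32434 genes without a minimum level, the log2 fold change was 0.20 (SE 0.03, limma adjusted p = 0.0149), a value that the added 1 FPKM shrinks for so low a gene. In that fit, 3.84% of genes rose. Limma's voom, a model of counts, gave a log2 fold change of 2.45 (SE 0.41, adjusted p = 2.13e-05) on the recovered fragments. The limma adjusted p was 0.0569 without shNC replicate 1 and 0.0567 without shNC replicate 2, where the call was lost, and 0.0371 to 0.0498 without each of the other libraries. Fragment intervals cover counting error only, since copies made by PCR are not independent molecules.

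IGF2BP2 (ENSG00000073792, chr3:185643739-185825056, minus strand), the paralog that persists in adult tissues, had 0.413, 0.406 and 0.214 FPKM in shMYT1 libraries, against 0.0983, 0.0402 and 0.131 FPKM in shNC libraries. All shMYT1 values were above all shNC values, though shMYT1 replicate 3 lay well below the other two of its group. These are 39, 34 and 18 fragments in shMYT1 and 10, 4 and 13 fragments in shNC, and the ratio of the means was 3.83. The log2 fold change of 0.30 (SE 0.08) did not pass in limma without a minimum level (adjusted p = 0.0742). It passed without shMYT1 replicate 3 (0.37, adjusted p = 0.0391) and with voom on fragments (1.97, SE 0.42, adjusted p = 0.000598).

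The make-up of the IGF2BP family was therefore described within each library. IGF2BP3 gave 95.2 ± 0.93% of the summed IGF2BP FPKM in shMYT1 and 98.8 ± 0.36% in shNC (SD, n = 3 each). IGF2BP1 gave 1.72 ± 0.10% in shMYT1 and 0.312 ± 0.086% in shNC, and IGF2BP2 gave 3.13 ± 1.02% in shMYT1 and 0.846 ± 0.441% in shNC. The groups did not overlap for any of these 3 shares, and each gave an exact two-sided permutation p = 0.1, the smallest that 3 libraries against 3 allow. The summed IGF2BP level was 11.01 ± 0.54 FPKM in shMYT1 and 10.6 ± 0.66 FPKM in shNC (exact permutation p = 0.5), and the groups overlapped.

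**Figure D2:**
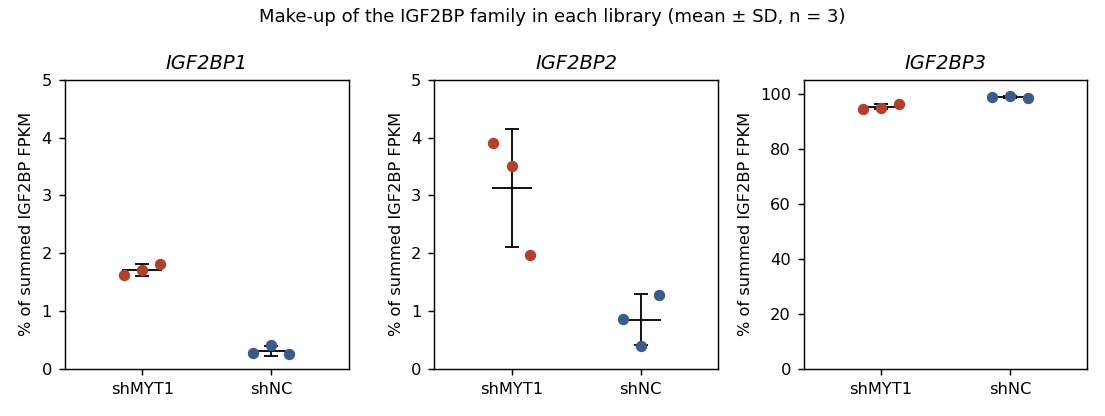
Share of the summed IGF2BP FPKM (y axis, percent) given by each paralog in the 3 shMYT1 libraries (red, left) and the 3 shNC libraries (blue, right), with mean and SD. The y axis ends at 5 for IGF2BP1 and IGF2BP2 and spans the whole for IGF2BP3, which gave 95.2% in shMYT1 and 98.8% in shNC.

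HMGA1 (ENSG00000137309, chr6:34236873-34246231, plus strand), an abundant chromatin protein of proliferating cells, had 118, 120 and 123 FPKM in shMYT1 libraries, against 107, 112 and 117 FPKM in shNC libraries. Every shMYT1 library lay above every shNC library, by a small margin between the lowest shMYT1 and the highest shNC value. The means were 120 ± 2.53 FPKM in shMYT1 and 112 ± 4.92 FPKM in shNC (SD, n = 3 each), a difference of 7.53%. The log2 fold change of 0.10 (SE 0.04, 95% interval 0.02 to 0.19) did not pass (limma adjusted p = 0.0866). It passed without shNC replicate 3 (0.14, adjusted p = 0.0317) and with voom on fragments (0.10, adjusted p = 0.0289). It was smaller and did not pass with rescaling to the same FPKM total (0.0685, adjusted p = 0.185) or with quantile normalization (0.0694, adjusted p = 0.157). Of 8 annotated HMGA1 pseudogenes, 5 were in the table, and the highest library value among them was 1.75 FPKM.

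HMGA2 (ENSG00000149948, chr12:65824131-65966295, plus strand), the classic let-7 target of the fetal and tumour setting, was close to absent. It had 5, 7 and 5 fragments in shMYT1 libraries, against 0, 0 and 2 fragments in shNC libraries, or 0.0163, 0.0257 and 0.0183 FPKM in shMYT1 and 0, 0 and 0.00619 FPKM in shNC. All shMYT1 libraries held more fragments than any shNC library, at levels that the 3-fragment floor of 0.00907 to 0.01102 FPKM puts near the limit. The ratio of summed fragments adjusted for library size was 9.73, with an exact 95% counting interval of 2.31 to 86.8. All shNC libraries lay under that floor, so the size of the ratio is poorly determined. On log2(FPKM + 1) the difference was 0.03 and did not pass (limma adjusted p = 0.565). Voom gave an adjusted p = 0.0229 on the fragments, with a fitted fold change that depends on the prior count. HMGA2 shares 384 exon bases with an antisense gene that is not in the table.

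DICER1 (ENSG00000100697, chr14:95086228-95158010, minus strand) had 18.0, 17.5 and 17.5 FPKM in shMYT1 libraries, against 18.2, 17.5 and 16.8 FPKM in shNC libraries. The shMYT1 values lay within the range of the shNC values. Limma placed DICER1 at a log2 fold change of 0.01 (SE 0.04, 95% interval of -0.07 to 0.10, adjusted p = 0.844). DROSHA (ENSG00000113360, chr5:31400497-31532196, minus strand) had 13.6, 13.8 and 13.8 FPKM in shMYT1 libraries, against 13.7, 12.4 and 12.9 FPKM in shNC libraries. Only shNC replicate 1 reached the shMYT1 values, and the groups overlapped. Limma placed DROSHA at a log2 fold change of 0.07 (SE 0.04, 95% interval of -0.02 to 0.17, adjusted p = 0.231). For the 2 nucleases, the intervals limit a change to ratios of 0.9504 to 1.07 for DICER1 and 0.985 to 1.13 for DROSHA on the FPKM + 1 scale.

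Of the 5 genes with at least 1 FPKM on average, 0 rose and 0 fell (limma), against 24.2% of all tested genes that passed, 11.9% that rose and 12.3% that fell. HMGA1 was the 1 gene of the 5 with an unadjusted p under 0.05 and the 1 called by voom. Their median log2 fold change was 0.04, beside -0.0048 for all tested genes, and their median absolute log2 fold change was 0.04, beside 0.11. The groups did not overlap in 1 of these 5 genes, HMGA1, against 20.5% of tested genes with shMYT1 higher. Of the 4 genes below 1 FPKM, 1 rose, IGF2BP1, and the groups did not overlap in 3, all higher in shMYT1, against 13.7% of all 32434 genes. All 4 genes below 1 FPKM hold an 8-letter let-7 match, beside 4.08% of genes with a 3′ UTR. Among them LIN28A was lower in shMYT1, with 1 fragment in total against 7 in shNC, and its groups overlapped. LIN28B and IGF2BP3 also hold such a match and did not pass, while HMGA1 holds 0. Whether the matches go with the differences was not tested. With voom on genes of at least 10 fragments in total, 4 of the 8 genes tested rose (IGF2BP1, IGF2BP2, HMGA1 and HMGA2) and 0 fell, against 10.1% of 24463 genes that rose and 10.4% that fell. At an unadjusted p under 0.05 these 4 were also the only genes of the 8 in voom.

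**Figure D3:**
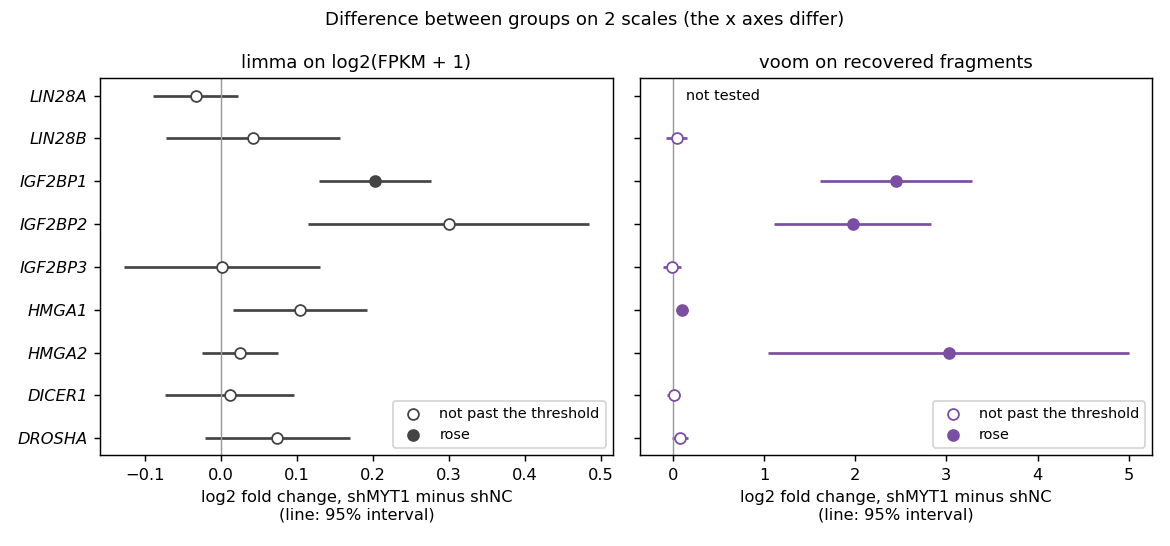
Log2 fold change (shMYT1 minus shNC, x axis, different ranges in the 2 panels) with its 95% interval for each gene, from limma on log2(FPKM + 1) at left (LIN28A, IGF2BP1, IGF2BP2 and HMGA2 from the fit without a minimum level) and from voom on recovered fragments at right. Filled points passed an adjusted p under 0.05: IGF2BP1 at left, and IGF2BP1, IGF2BP2, HMGA1 and HMGA2 at right.

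The other genes of microRNA processing and silencing moved little and in both directions. All 18 of the list were tested, 1 rose and 5 fell, with a median log2 fold change of -0.03, and voom called 2 higher and 6 lower. Beside them, 11.9% of all tested genes rose and 12.3% fell in limma. SND1, a nuclease subunit of the silencing complex, rose to 45.3 ± 0.88 FPKM in shMYT1, against 39.3 ± 0.83 FPKM in shNC (SD, n = 3 each; limma log2 fold change 0.20, adjusted p = 0.00407). TNRC6C, a scaffold of silencing, fell to 5.84 ± 0.23 FPKM in shMYT1, against 6.81 ± 0.16 FPKM in shNC (-0.19, adjusted p = 0.0170). The TNRC6C call was lost without shMYT1 replicate 1 (adjusted p = 0.0590) and without shNC replicate 1 (0.0618). KHSRP, which binds let-7 precursors and favours their processing, fell to 95.3 ± 0.88 FPKM in shMYT1, against 107 ± 3.73 FPKM in shNC (-0.17, adjusted p = 0.00987). With the running median of 50 neighbouring genes removed, KHSRP no longer passed (-0.06, adjusted p = 0.223), and SND1 passed at a smaller value (0.12, adjusted p = 0.0331). The helicase gene MOV10 fell by 0.16 on the log2 scale (adjusted p = 0.0246), a call that was lost with any 1 library left out (0.0507 to 0.0697). DGCR8, the partner of DROSHA, and XPO5, which exports the hairpins that DICER1 cuts, are part of the 12 that did not pass. Of the 7 genes of let-7 precursor control, which act with LIN28 or on the same precursors, 0 rose and 0 fell (limma), 0 had an unadjusted p under 0.05 and 0 were called by voom, with a median log2 fold change of 0.03. Their 2 most abundant were SYNCRIP, at 51.5 ± 0.96 FPKM in shMYT1 and 54.0 ± 2.11 FPKM in shNC, and MSI2, at 12.8 ± 0.35 FPKM in shMYT1 and 12.4 ± 0.59 FPKM in shNC (SD, n = 3 each). MSI2, at a log2 fold change of 0.04, passed with the running median of neighbouring genes removed (0.18, adjusted p = 0.0319).

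The let-7 hairpins themselves are too short for these libraries: 5 of 12 hairpin genes were in the table, with 0 to 11 fragments per library. Host genes with at least 1 FPKM span 8 of the 12 hairpins on the same strand. Their FPKM covers the exons of the whole gene and does not measure the transcript at the hairpin. Of 6 such host genes with at least 1 FPKM, 2 rose and 1 fell in limma, each close to the threshold, and voom called 2 higher and 2 lower. WDR82, host of let-7g, had 26.8, 26.7 and 27.1 FPKM in shMYT1 libraries, against 25.2, 24.6 and 25.5 FPKM in shNC libraries (log2 fold change 0.09, limma adjusted p = 0.0461). HUWE1, host of let-7f-2 and miR-98, had 29.4, 29.2 and 31.0 FPKM in shMYT1 libraries, against 28.1, 26.9 and 27.2 FPKM in shNC libraries (0.12, adjusted p = 0.0469). MIR100HG, host of let-7a-2, had 4.15, 4.54 and 3.77 FPKM in shMYT1 libraries, against 5.15, 5.48 and 4.78 FPKM in shNC libraries (-0.25, adjusted p = 0.0417). None of these 3 pairs of groups overlapped. The calls of WDR82, HUWE1 and MIR100HG were lost without the minimum of 1 FPKM (adjusted p = 0.0530, 0.0824 and 0.103). With 1 library left out, HUWE1 lost its call in all 6 fits (adjusted p = 0.0668 to 0.147), WDR82 in each but that without shNC replicate 3 (0.0843 to 0.156) and MIR100HG in each but those without shMYT1 replicate 2 or shNC replicate 3 (0.103 to 0.127). Rescaled to the same FPKM total, WDR82 was at 0.0587 and HUWE1 did not pass either (adjusted p = 0.146 and 0.109). MIRLET7BHG, host of let-7a-3 and let-7b, 2 of the 3 hairpins without GGAG, averaged 4.75 FPKM in shMYT1 and 4.16 FPKM in shNC and did not pass (adjusted p = 0.259). SPACA6, host of let-7e, and MIR99AHG, host of let-7c, did not pass in limma (0.26 and -0.22, adjusted p = 0.0533 and 0.0981), though their groups did not overlap. Voom called SPACA6 higher and MIR99AHG lower (adjusted p = 0.0161 and 0.00179). It also called HUWE1 higher and MIR100HG lower, but not WDR82. The symbols MIRLET7DHG and MIRLET7IHG were not matched in GENCODE 29. By position, let-7a-1, let-7f-1 and let-7d lie in AL158152.2 and let-7i in AC048341.1, both under 1 FPKM on average. AL158152.2 averaged 0.426 FPKM in shMYT1 and 0.269 FPKM in shNC. AC048341.1 averaged 1.00 FPKM in shMYT1 and 0.756 FPKM in shNC, and its groups did not overlap. Neither passed in the fit without a minimum level (limma adjusted p = 0.944 and 0.236).

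Known let-7 targets outside the 9 genes moved in both directions. Of 25 listed, 21 were tested, 5 rose and 5 fell, with a median log2 fold change of -0.08, and voom called 5 higher and 9 lower. FIGN, a microtubule-severing enzyme, had 5.05, 5.14 and 5.36 FPKM in shMYT1 libraries, against 10.2, 9.92 and 9.64 FPKM in shNC libraries (log2 fold change -0.82, limma adjusted p = 8.53e-05). GDF6, a bone morphogenetic protein, had 1.56, 1.42 and 1.81 FPKM in shMYT1 libraries, against 3.81, 3.17 and 3.40 FPKM in shNC libraries (-0.78, adjusted p = 0.00134). CCND1, a cyclin of the G1 phase, had 188, 184 and 185 FPKM in shMYT1 libraries, against 262, 258 and 259 FPKM in shNC libraries (-0.48, adjusted p = 7.91e-05). These 3 genes fell with wide gaps between the groups. IRS2, an adaptor of insulin and IGF receptors, had 9.09, 9.68 and 10.2 FPKM in shMYT1 libraries, against 7.82, 7.44 and 7.71 FPKM in shNC libraries (0.30, adjusted p = 0.00593). With the running median of 50 neighbouring genes removed, IRS2 no longer passed (0.06, adjusted p = 0.452).

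All tested genes with a 3′ UTR were also grouped by the 8-letter let-7 match. Of 21 genes with 2 or more matches, 0 rose and 2 fell (9.52%), and the median log2 fold change was -0.03. Of 504 genes with 1 match, 66 rose and 67 fell (13.1% and 13.3%), with a median of -0.0071. Of 10608 genes with 0 matches, 1442 rose and 1507 fell (13.6% and 14.2%), with a median of -0.0064. The classes differ in UTR length, with medians of 5124, 3040 and 1362 bases in the same order. LIN28B, at 0.04, lay at the upper quartile of its class, and IGF2BP3, at 0.0011, close to the median of its class.

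**Figure D4:**
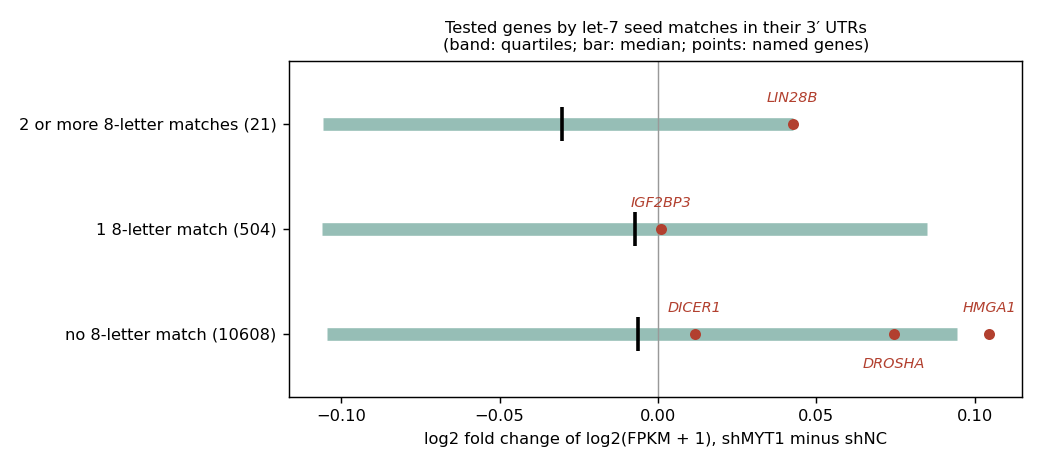
Log2 fold change (shMYT1 minus shNC, x axis) of tested genes by the number of 8-letter let-7 matches in their 3′ UTRs, with the number of genes in brackets, the quartile range as a band and the median as a bar. Points mark LIN28B, IGF2BP3, HMGA1, DICER1 and DROSHA, of which HMGA1 lies past the upper quartile of its class.

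Of the genes of the RAN and AURKA axis, which LIN28B is known to raise in neuroblastoma, 0 of 7 rose and 0 fell (limma), with a median log2 fold change of -0.05. RAN had 128 ± 2.20 FPKM in shMYT1 and 129 ± 2.16 FPKM in shNC, and TPX2, the activator of AURKA, had 76.2 ± 0.72 FPKM in shMYT1 and 81.4 ± 2.31 FPKM in shNC (SD, n = 3 each). TPX2 did not pass (log2 fold change -0.09, limma adjusted p = 0.0534) and was the 1 gene of the list with an unadjusted p under 0.05 and the 1 that voom called, lower in shMYT1. It also passed with a minimum of 5 FPKM, with rescaling and with quantile normalization (adjusted p = 0.0473, 0.0170 and 0.0334).

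Among mRNAs known to be bound by IGF2BP proteins, 9 of 12 were tested, 5 rose and 2 fell, with a median log2 fold change of 0.26. Of all tested genes, 11.9% rose and 12.3% fell. IGF2, the growth factor mRNA that gave the family its name, had 5.07, 5.47 and 5.69 FPKM in shMYT1 libraries, against 1.41, 1.48 and 1.76 FPKM in shNC libraries. The groups lay far apart (log2 fold change 1.33, SE 0.07, limma adjusted p = 0.000120), and IGF2 shares most of its exon bases with other annotated genes. LAMB2, a laminin chain, rose to 6.53 ± 0.14 FPKM in shMYT1, against 5.09 ± 0.11 FPKM in shNC (0.31, adjusted p = 0.00204). ACTB, the actin mRNA that IGF2BP1 is known to carry in neurons of chicken and rodents, rose to 629 ± 9.51 FPKM in shMYT1, against 518 ± 11.7 FPKM in shNC (0.28, adjusted p = 0.000920). With quantile normalization ACTB was at 0.12 (adjusted p = 0.0242). MAPT, which encodes tau, fell to 4.35 ± 0.17 FPKM in shMYT1, against 5.52 ± 0.23 FPKM in shNC (-0.29, adjusted p = 0.00635). Of 13 other m6A genes, 2 rose and 3 fell, with a median log2 fold change of 0.02. The readers YTHDC1 and YTHDF2 rose (0.18 and 0.16, adjusted p = 0.0182 and 0.00985), and the writer subunit VIRMA and the eraser ALKBH5 fell (-0.16 and -0.15, adjusted p = 0.0354 and 0.0193). YTHDC1, ALKBH5 and VIRMA did not pass with the running median of neighbouring genes removed, where VIRMA turned to 0.03. With 1 library left out, YTHDC1 and ALKBH5 lost their calls without shMYT1 replicate 1 or 2, YTHDC1 also without shNC replicate 2 and ALKBH5 without shNC replicate 1 (adjusted p = 0.0534 to 0.0715), and VIRMA lost its call in each fit but that without shMYT1 replicate 2 (0.0618 to 0.110).

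Oncofetal genes outside the 9, silent in most adult tissues, included some of the larger differences of the lists described here. Of 8 tested, 5 rose and 1 fell, with a median log2 fold change of 0.29, beside 11.9% of all tested genes that rose and 12.3% that fell. IGF2 is counted here and among the mRNAs bound by IGF2BP proteins, and SALL4 here and among the pluripotency genes. DLK1, a membrane protein of fetal tissues, rose to 55.1 ± 1.5 FPKM in shMYT1, against 33.4 ± 1.82 FPKM in shNC (0.71, limma adjusted p = 0.000208). TPBG, the trophoblast glycoprotein, rose to 9.37 ± 0.25 FPKM in shMYT1, against 6.12 ± 0.19 FPKM in shNC (0.54, adjusted p = 0.000326). GPC3, a glypican of fetal liver, fell to 2.15 ± 0.23 FPKM in shMYT1, against 7.34 ± 0.17 FPKM in shNC (-1.41, adjusted p = 6.25e-05). The pluripotency genes SOX2 and SALL4 rose (0.31 and 0.30, adjusted p = 0.00204 and 0.00839), at 7.46 ± 0.26 FPKM in shMYT1 and 5.83 ± 0.04 FPKM in shNC for SOX2, and 3.63 ± 0.20 FPKM in shMYT1 and 2.75 ± 0.10 FPKM in shNC for SALL4. These were the 2 tested of 7 listed pluripotency genes. POU5F1 and KLF4 were under 1 FPKM, and NANOG, PRDM14 and DPPA4 were not found in the table.

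Genes of related protein classes moved in both directions. Of 4 tested cold shock domain genes, the domain that LIN28 proteins carry, 2 rose and 0 fell, with a median log2 fold change of 0.13. YBX1 rose to 872 ± 24.4 FPKM in shMYT1, against 730 ± 18.8 FPKM in shNC (0.26, limma adjusted p = 0.00228). With quantile normalization YBX1 was at 0.13 (adjusted p = 0.00456). CSDC2 rose to 7.30 ± 0.44 FPKM in shMYT1, against 4.22 ± 0.24 FPKM in shNC (0.67, adjusted p = 0.000571). Of 7 tested genes for HMGB and HMGN proteins, which share a name but not the AT-hook with HMGA proteins, 1 rose and 1 fell, with a median log2 fold change of -0.05. HMGB1 rose to 112 ± 4.59 FPKM in shMYT1, against 94.2 ± 1.36 FPKM in shNC (0.25, adjusted p = 0.00332), and HMGB2 fell to 232 ± 5.70 FPKM in shMYT1, against 266 ± 3.92 FPKM in shNC (-0.20, adjusted p = 0.00320). HMGB1 did not pass with the running median of neighbouring genes removed (0.05, adjusted p = 0.356), and HMGB2 passed at -0.12 (adjusted p = 0.0250). The median log2 fold change of all 14106 tested genes, for comparison with each list, was -0.0048, and 11.9% of them rose and 12.3% fell.

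**Figure D5:**
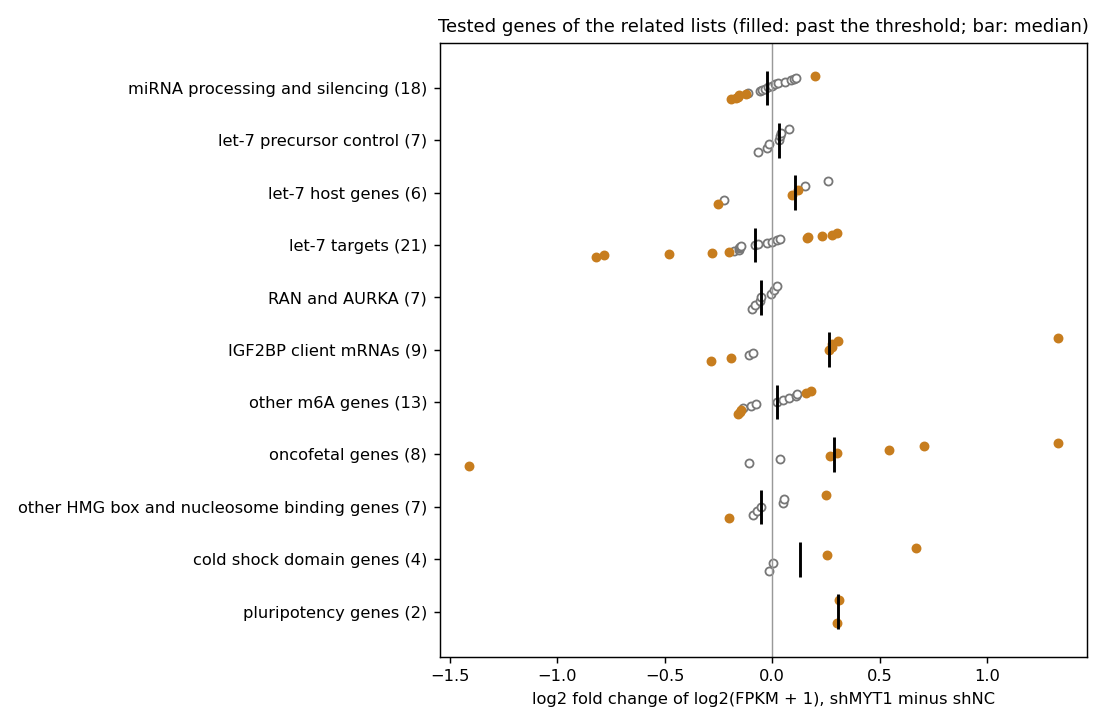
Log2 fold change of log2(FPKM + 1) (shMYT1 minus shNC, x axis) of each tested gene in 11 related lists, with the number tested in brackets. Filled points passed an adjusted p under 0.05 and the bar is the median, which ran between -0.08 for let-7 targets and 0.31 for pluripotency genes.

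Across the 6 libraries, the genes most like each well expressed gene were found by Pearson correlation of log2(FPKM + 1) over 7260 protein-coding genes with at least 5 FPKM. LIN28B was most like NAP1L1 (r = 0.986) and MSI2 (r = 0.985), IGF2BP3 like TMEM9B (r = 0.977) and NFYA (r = 0.965), and HMGA1 like KCNH2 (r = 0.997) and TAF15 (r = 0.996). DICER1 was most like NDUFAF7 (r = 0.968) and VPS4B (r = 0.964), and DROSHA like ZUP1 (r = 0.990) and ABRACL (r = 0.988). The points share their libraries and depth, and the highest of so many candidates over 6 libraries is high by selection, so these values are descriptions. MSI2 is also in the list of let-7 precursor control, with 13.0, 13.1 and 12.4 FPKM in shMYT1 libraries and 12.9, 12.7 and 11.8 FPKM in shNC libraries.

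The nearest tested protein-coding gene on each side of the 9 genes gave 18 neighbours, of which 2 rose and 2 fell, or 22.2% that passed beside 24.2% of all tested genes. CDH18, a cadherin gene and the nearest tested one on the lower side of DROSHA though 10.8 Mb away, rose to 2.29 ± 0.13 FPKM in shMYT1, against 1.21 ± 0.01 FPKM in shNC (log2 fold change 0.57, limma adjusted p = 0.00157). DHDDS, 2.56 kb from LIN28A, rose by 0.13 on the log2 scale (adjusted p = 0.0453). BVES, 13.5 kb from LIN28B, fell by 0.16 (adjusted p = 0.0258), and ZNF652, 234 kb from IGF2BP1, fell by 0.14 (adjusted p = 0.0436). These last 3 calls were lost without the minimum of 1 FPKM (adjusted p = 0.0835, 0.0504 and 0.0856) and with the running median of neighbouring genes removed (0.180, 0.0705 and 0.147). With 1 library left out, DHDDS and ZNF652 lost their calls in all 6 fits (adjusted p = 0.0647 to 0.142 and 0.0666 to 0.131) and BVES in 5 (0.0633 to 0.0900). The median log2 fold change of the 50 nearest tested genes lay between -0.08 and 0.06 for the 9 positions, with -0.05 around IGF2BP1 and 0.03 around HMGA1. Of the partners that share exon bases with the 9 genes on the opposite strand, LIN28B-AS1 (67 shared bases) averaged 0.739 FPKM in shMYT1 and 1.05 FPKM in shNC. MALSU1 averaged 6.72 FPKM in shMYT1 and 6.05 FPKM in shNC, and DICER1-AS1 (80 shared bases) averaged 1.48 FPKM in shMYT1 and 1.29 FPKM in shNC. None of these 3 partners passed (limma adjusted p = 0.245, 0.135 and 0.363). MALSU1, at a log2 fold change of 0.13, passed with the running median of neighbouring genes removed (0.21, adjusted p = 0.0388). The 2 antisense partners of IGF2BP1 are not in the table.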

How the data were processed

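The authors deposited 1 table of FPKM (fragments scaled to exon length and library size), 1 column per library. The submitters' processing notes name HISAT2 2.0.5, featureCounts 1.5.0-p3 and hg38. Annotation, strandedness and filtering: not given in the sources used here. Of the IDs, 99.6% were in GENCODE 29, which gave symbols, positions, exon lengths and 3′ UTRs. FPKM times exon length was a whole number of fragments, within 0.01, in all libraries for 94.8% of those. The medians of the ratios to the mean library agreed to within 7.0e-08%, so the deposited values were already scaled, and they were used as they are.

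Genes of at least 1 FPKM on average entered a two-sided limma fit (version 3.58.1 under R 4.3.3) of log2(FPKM + 1), trended in variance, with Benjamini-Hochberg adjustment over all genes. The log2 fold change is shMYT1 minus shNC and understates low genes. Genes under that level were taken from the fit without a minimum. Alternatives included voom with TMM scaling on recovered fragments. Shares were tested by exact permutation, with scipy 1.17.1 for counting intervals. Within groups, libraries differed beyond sampling noise (chi-square per gene 2.09 to 3.41), and none were merged. The methods were tested on simulated data.

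The 9 genes and the lists were chosen with earlier results of these data known. Of each list, up to 4 passing genes with the largest absolute change are named, or the 2 highest where none passed. The rule also named all 18 flanking genes; after their values were seen, this was narrowed to the 4 that passed, and the others are given as a count. The 2 genes most like each well expressed gene and those sharing its exon bases are also named. Of 59 other genes chosen by these rules, 2 of which are not reported here, 24 overlap exons of an opposite-strand gene and 5 of a same-strand gene, where fragments cannot be assigned with certainty.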

Additional observations from a re-analysis of the deposited data

How the results depend on the processing

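Alternatives varied the pseudocount, minimum level, scaling, variance trend and model, added a replicate block, removed the running median of 50 neighbouring genes, and left out each library in turn. Voom limited to genes of at least 10 fragments was chosen after seeing the data. With either voom fit the same 4 genes rose, of 9 tested in the first fit and of 8 in this second one, where LIN28A was under the minimum. In the second, 10.1% of all genes rose. The first gave IGF2BP2 1.967, HMGA1 0.110 and HMGA2 3.018, and the second 1.971, 0.1012 and 3.024, all past the threshold, on the log2 scale. With the replicate block, IGF2BP1 (0.203) lost its call (adjusted p = 0.0683) and HMGA1 (0.1046) gained one (adjusted p = 0.0368). Of the other named genes, DHDDS (0.0740), HUWE1 (0.0596) and ZNF652 (0.0760) lost and KCNH2 (0.0213) gained a call with it, by adjusted p. Deviations of same-numbered libraries correlated at 0.033, 0.013 and 0.043, and those of differently numbered libraries at -0.039 to 0.0083. The same-numbered values were the highest but small, and the numbers are not taken to pair the samples.

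Rescaling to the same FPKM total turned IGF2BP3 to -0.0322, DICER1 to -0.0228, NAP1L1 to -0.0026, NFYA to -0.0310, TMEM9B to -0.0248 and VPS4B to -0.0133. Removing the running median turned DICER1 to -0.0163, NFYA to -0.0114, SYNCRIP to 0.0341 and VIRMA to 0.0333. The second voom fit turned IGF2BP3 to -0.0052 and NFYA to -0.00072. The cause was not tested. Taken from fragments, not per length, the difference in share was 1.524 points for IGF2BP1, 1.291 for IGF2BP2, -2.815 for IGF2BP3 and -0.0986 for HMGA1.

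With each library left out in turn, fewer samples entered the fit. Genes that rose numbered 1018 to 1579 and genes that fell 1020 to 1469, with moves of over 1.5 times without shMYT1 replicate 1 (1094 and 1102), shNC replicate 1 (1098 and 1097) and shNC replicate 2 (1018 and 1020). Of the 9 genes, 0 to 2 rose: 0 without shNC replicate 1 or 2, and 2 without shMYT1 replicate 3 or shNC replicate 3. Log2 fold changes ranged over 0.197 to 0.214 for IGF2BP1, 0.263 to 0.372 for IGF2BP2, 0.0738 to 0.137 for HMGA1, -0.0315 to 0.0478 for IGF2BP3 and -0.0152 to 0.0368 for DICER1. Turning sign with a library left out, none past the threshold, were NAP1L1 (-0.0040 to 0.0554), NDUFAF7 (-0.0125 to 0.0761), NFYA (-0.0060 to 0.0171), RAN (-0.0204 to 0.0024), TMEM9B (-0.0230 to 0.0528) and VPS4B (-0.0486 to 0.0688). At this depth, LIN28A and HMGA2 rest on at most 7 fragments per library.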
